A study of Mus musculus with 18 samples.

Results

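Myh6, Myh7 and Myh7b encode the myosin heavy chains of heart muscle, and Mhrt is a non-coding RNA read from the opposite strand of Myh7. These 4 genes were chosen by name out of 35843 Ensembl genes in the count tables, and were followed in single cells of postnatal mouse hearts. Single-cell RNA-seq on nanowell chips covered postnatal day 4 (P4), P7, P14 and P28, with 2 chips each at P4, P7 and P14 and 6 chips at P28, all from untreated hearts of the strain labelled Myh6/Esr1-Tomato. A further 6 chips held P28 hearts of the same strain after knockdown of Jun with a short hairpin (shJun) or a non-targeting hairpin (shNT), with the hairpin and animal of each well given by the deposited well reports. Per the study's methods the mice carry a tamoxifen-inducible Cre under the Myh6 promoter and a red reporter, tamoxifen was fed to the nursing mothers in the days after delivery, and lentivirus with the hairpins was injected after birth and hearts were taken at P28. Cre is therefore meant to mark cells that use the promoter of one of the 4 genes.

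Several features of the samples bear on all values. Each chip held 1 stage, P4 and P7 hearts were cut up and digested with a kit while P14 and P28 hearts were perfused, and both chips of P4, and both of P7, carried cells of the same 2 animal names. Stage cannot be told apart from chip, nor the step from P7 to P14 from the change of digestion. Of 19996 cells that passed, 6044 were cardiomyocyte-like (CM-like), of which P4 gave 317, P7 39, P14 400, P28 1786 and the knockdown hearts 3502. The remaining 3 chips of P28 gave 0, 3 and 2 CM-like cells and enter no CM-like sum. In the series, P28 cells came as a cardiomyocyte fraction and a non-cardiomyocyte fraction. The part of this fractioning in the P28 levels and background was not tested. CM-like clusters were named from 8 other markers (Tnnt2, Tnni3, Actc1, Tnnc1, Ryr2, Pln, Actn2 and Mb), without the 4 genes, and these markers together reached 31889 to 48680 CPM (UMIs per 1000000 UMIs of a sum) in the CM-like sums of the stages. A sum adds the UMIs of all CM-like cells of a chip, or of an animal in the knockdown hearts, and held between 864734 and 65098664 UMIs. At P4, 116 of the CM-like cells had more UMIs of atrial than of ventricular markers. The reporter went against the strain label in the knockdown hearts, where 8 of 3502 CM-like cells held a UMI of it, while between 24.5 and 95.7% of CM-like cells of the stage chips did.

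The heart of the mouse switches around birth from Myh7, the slow β-heavy chain, to Myh6, the fast α-heavy chain, under thyroid hormone, and returns to Myh7 under load. Myh7b is an ancient, weakly expressed relative. Each of the 3 heavy chain genes hosts a microRNA in an intron (miR-208a in Myh6, miR-208b in Myh7, miR-499 in Myh7b), and Mhrt is known to bind the chromatin remodeller Brg1 (Smarca4) and to hold it off its targets.

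On GRCm38, Myh6 (ENSMUSG00000040752) lies on the minus strand at chr14:54941921-54966927 and Myh7 (ENSMUSG00000053093) on the same strand at chr14:54970684-54994626, 3756 bases before it. Mhrt (ENSMUSG00000097652) runs on the plus strand at chr14:54968678-54974349 and starts 1751 bases from the start of Myh6. Of its 1214 exon bases, 484 (39.9%) lie inside exons of Myh7. Whether reads were counted by strand is not stated, so reads from these bases cannot be assigned to Mhrt or Myh7 with certainty. Myh7b (ENSMUSG00000074652) stands apart on the plus strand at chr2:155611212-155634307.

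**Figure D1:**
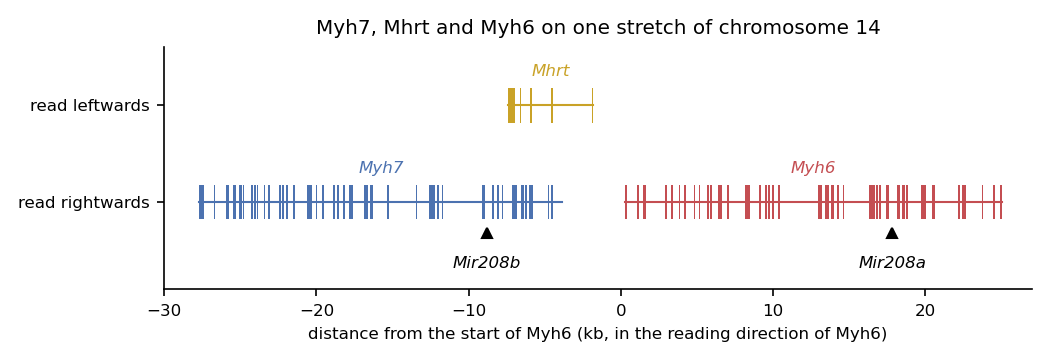
Exons (boxes) and introns (lines) of 1 annotated transcript each of Myh7, Mhrt and Myh6, by distance from the start of the Myh6 gene in kb, with the 2 intronic microRNA genes as triangles. Myh7 and Myh6 are read rightwards one after the other, and Mhrt is read leftwards from between them into the end of Myh7.

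Sequence sets a limit to how well Myh6 and Myh7 can be told apart. Their coding sequences are 91.4% identical, 22.6% of the 50-base words of Myh6 also occur in Myh7, and the longest identical run is 245 bases. None of the 50-base words of Myh6 or Myh7 occurs in Myh7b. In the 63 bases after the coding part of Myh6, 0.0% of the 20-base words occur in Myh7. The 90 coding bases below were taken close to the stop codons (12 coding bases before the end in Myh6 and 9 in Myh7, at chr14:54941996-54942436 and chr14:54970805-54971460 across introns, minus strand, GRCm38). They are shown because a read from this stretch can be told apart at the 4 bases in capitals alone.
Myh6: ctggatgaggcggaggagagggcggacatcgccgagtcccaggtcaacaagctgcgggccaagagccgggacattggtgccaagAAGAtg
Myh7: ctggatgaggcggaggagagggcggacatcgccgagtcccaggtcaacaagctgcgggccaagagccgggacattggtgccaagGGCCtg

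The mature microRNAs of the 3 host genes are given from RefSeq (GRCm38.p6) with the seed, bases 2 to 8, in capitals, because they are the other product of these transcripts. miR-208a-3p and miR-208b-3p share a seed that no other of 1738 mature microRNAs in the table holds, and differ at 3 bases outside it, G10A, A16G and C18U counted from the 5′ end of miR-208a-3p. The seed of miR-499-5p matches theirs at 6 of 7 positions.
mmu-miR-208a-3p: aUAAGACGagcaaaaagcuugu
mmu-miR-208b-3p: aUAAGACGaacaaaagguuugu
mmu-miR-499-5p: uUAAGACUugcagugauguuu

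Promoters are shown for the 3 genes of the chromosome 14 locus, whose levels were compared across stages and after knockdown of the AP-1 factor Jun. The RefSeq windows of 250 bases before the start were searched on both strands for M-CAT, spelled CATTCC, which 12.6% of 32851 promoters held. They were also searched for the AP-1 heptamer TGANTCA (in 6.75% of promoters), the TATA box TATAAA (in 12.4%) and the thyroid hormone receptor half-site AGGTCA (in 14.0%). M-CAT, in capitals below as GGAATG, was found 206 bases before the start in Myh6, 201 before the first start of Myh7 and 220 before that of Mhrt. These starts are those of RefSeq and do not all match the gene positions given above. The Myh6 window lies inside the gene span given there, and the windows of Mhrt and Myh7b run past the starts given there. No motif overlapped another. The half-site was found in the window of Myh7b alone, 46 bases before the start. AP-1 and TATA letters were found in none of the windows of the 4 genes, which says no more than that the windows lack these letters.
Myh6, chr14:54966608-54966857, minus strand: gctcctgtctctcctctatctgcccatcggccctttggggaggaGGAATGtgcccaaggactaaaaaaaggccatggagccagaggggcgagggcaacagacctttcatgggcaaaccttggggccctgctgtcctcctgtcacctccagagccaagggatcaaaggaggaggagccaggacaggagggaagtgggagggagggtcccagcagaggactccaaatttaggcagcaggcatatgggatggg
Myh7, chr14:54994627-54994876, minus strand: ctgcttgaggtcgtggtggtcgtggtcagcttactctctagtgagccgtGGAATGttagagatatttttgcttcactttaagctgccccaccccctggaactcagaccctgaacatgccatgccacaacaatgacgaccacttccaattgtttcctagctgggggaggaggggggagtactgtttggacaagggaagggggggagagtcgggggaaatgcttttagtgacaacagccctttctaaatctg
Mhrt, chr14:54968537-54968786, plus strand: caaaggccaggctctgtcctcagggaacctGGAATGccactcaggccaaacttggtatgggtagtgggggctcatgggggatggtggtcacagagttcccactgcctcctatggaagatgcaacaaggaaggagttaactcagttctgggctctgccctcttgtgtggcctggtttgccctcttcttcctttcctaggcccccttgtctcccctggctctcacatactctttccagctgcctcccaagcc

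Myh6 was the most abundant of the 4 in every CM-like sum. Per kb of exon, its level was between 1122 and 4898 CPM, against 54.6 to 180 CPM for Myh7, 46.2 to 254 CPM for Mhrt and 1.66 to 6.40 CPM for Myh7b. Ranked per kb among all genes, Myh6 stood between places 15 and 109 and Myh7 between places 366 and 947. Mhrt lay above Myh7 per kb in 5 of 13 sums and below it in 8. In CPM not per length Myh7 was above Mhrt in every sum, at no less than 471 CPM against no more than 308 CPM. The change of order thus comes from dividing by exon length, 8.616 kb for Myh7 and 1.214 kb for Mhrt. The study took UMIs as counts of captured transcripts, so levels and ranks per kb need not be those of molecules. Myh7b was lowest in all 13. In the levels that follow, CPM leaves out mitochondrial genes and is not per length.

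Across stages the level of Myh6, the motor of the adult atrium and ventricle, was 12004 and 11885 CPM on the 2 chips of P4, 19057 and 18768 CPM at P7, and 9243 and 14877 CPM at P14. On the 3 chips of P28 it was 8322, 14732 and 7546 CPM. P7 was high and did not overlap P4 or P14, while P14 and P28 overlapped each other and P4. The group means were 18912 ± 204 CPM (SD, n = 2 chips) at P7, 12060 ± 3984 (n = 2) at P14, 11944 ± 83.7 (n = 2) at P4 and 10200.1 ± 3944 (n = 3) at P28, so only P7 stood beyond the spread of its neighbours. This order rests on the clusters, as the P7 sums hold 16 and 23 cells. With CM-like cells called one by one from their markers, P7 (476 and 712 cells) was at 3708 and 3789 CPM and had the lowest mean of the 4 stages, 3749 CPM against 6890 at P4, 9034 at P14 and 7807 at P28. That call took 476 and 712 of 2438 passing cells at P7, and 723 and 915 of 2369 at P4. At both stages it thus takes in cells of clusters named for other types. Its Myh6 mean at P7 lay nearer to the 1862 CPM of passing cells outside the CM-like class than to the 18912 CPM of the clusters.

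Myh7, the β-heavy chain, was at 935 and 764 CPM at P4 and at 1181 and 1126 CPM at P7. It was at 508 and 733 CPM at P14 and at 471, 610 and 559 CPM at P28. P7 again stood above P4 and P14 without overlap, P28 below P4, and P14 and P28 overlapped. In order the means were 1153 ± 38.9 CPM at P7, 849 ± 121 at P4, 620 ± 159 at P14 and 547 ± 70.5 at P28. With cells called one by one P7 was lowest here too, at a mean of 290 CPM, below P4 (494 CPM) and P14 (487 CPM) without overlap.

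For Myh7b the level was 34.6 and 26.4 CPM at P4 and 31.2 and 24.4 CPM at P7, then 20.7 and 11.0 CPM at P14 and 12.9, 14.6 and 17.9 CPM at P28. Both younger stages lay above both older ones in CPM, without overlap, and neighbours within each pair overlapped. Between 27 and 255 UMIs stand behind each of these values. The share of all genes with such a split was not taken. In the fit described below, which rescales the sums, the log2 change of Myh7b for P14 against P7 was -0.02 ± 0.73 (SE). The lower CPM at P14 was thus not seen on that scale.

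Mhrt was at 141 and 95.8 CPM at P4, 237 and 150 CPM at P7, 118 and 308 CPM at P14, and 157, 74.2 and 56.1 CPM at P28. Its chips of 1 stage differed by up to 2.79-fold, more than the chips of any heavy chain did, and at P14 they spanned the whole of P7. P4 and P7 did not overlap, and P28 overlapped P4 and P14.

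**Figure D2:**
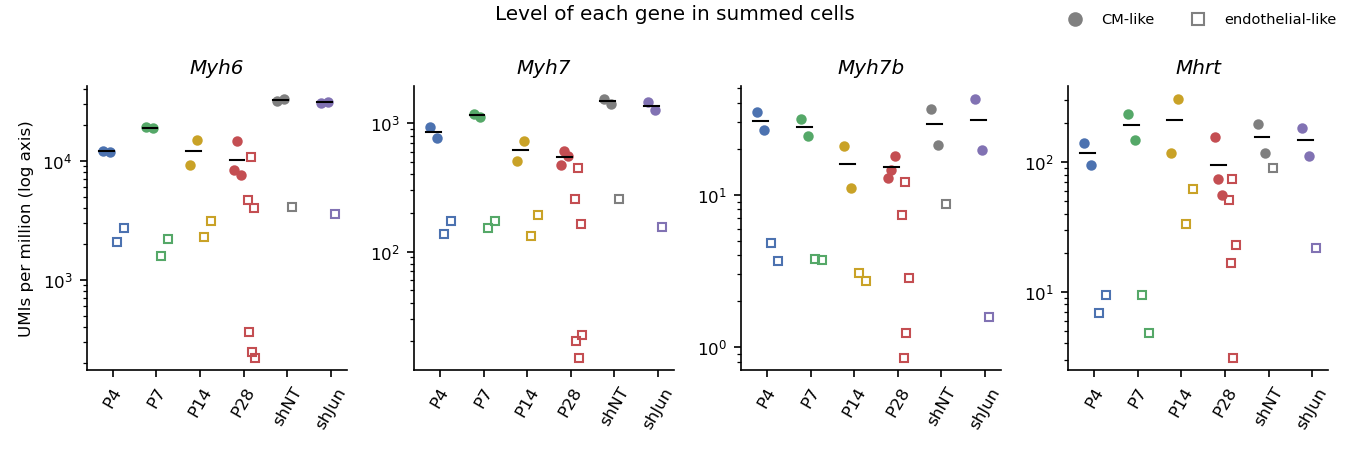
Level of each gene in CPM (log axis) in summed CM-like cells (filled circles) and summed endothelial-like cells (open squares) of each chip or knockdown animal with at least 10 cells, with black lines for the CM-like mean of a group. Myh6 and Myh7 are highest among the stages at P7, where the circles stand for 16 and 23 cells and where calling cells one by one gives the lowest means (3749 and 290 CPM), and at P28 the endothelial-like squares of 3 chips reach into or near the CM-like circles. The one-by-one call takes in cells of clusters named for other types at P4 and P7. Values of 0 are not drawn.

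None of the 4 genes passed the test for a change between stages (edgeR's quasi-likelihood test on the sums, Benjamini-Hochberg adjusted p under 0.05 over 13717 genes), against 0.0437% of all genes for P7 against P4, 2.41% for P14 against P7, 0.0% for P28 against P14 and 1.49% for P28 against P4. With no gene called at all, P28 against P14 had 843 genes at an unadjusted p under 0.05 (6.15%), and DESeq2 called 23. Groups that did not overlap in CPM, as for 3 of the 4 genes between P4 and P7 and again between P7 and P14, were also found for 41.8 and 44.5% of all genes tested. Likewise 2 of the 4 did not overlap between P28 and P4, against 43.1%, and none between P28 and P14, against 30.2%.

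The fit rescales the sums by TMM factors between 0.678 and 1.28, so its changes differ from those in CPM. For P7 against P4 the log2 change was 0.61 ± 0.49 (SE; adjusted p = 0.603) for Myh6, 0.40 ± 0.41 (adjusted p = 0.702) for Myh7, -0.18 ± 0.72 for Myh7b and 0.66 ± 0.54 for Mhrt, where the median of all genes was -0.23. With CM-like cells called cell by cell the changes of Myh6, Myh7 and Mhrt turned to -0.87, -0.75 and -0.53, and thinning to at most 5000 UMIs per cell turned those of Myh7 (-0.15) and Mhrt (-0.24). P14 against P7 gave 0.06 ± 0.49 for Myh6 and -0.17 ± 0.41 for Myh7 beside a median of 0.22, so that the lower CPM of both at P14 was not seen in Myh6 on this scale. For Myh6 this change was -0.06 with DESeq2's size factors. Cell-by-cell calling gave 2.15 (adjusted p = 0.138) for Myh6 and 1.63 (adjusted p = 0.196) for Myh7.

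Mhrt held the lowest unadjusted p of any member in any contrast, with a log2 change of -1.47 ± 0.48 for P28 against P14 (unadjusted p of 0.00645 and adjusted p of 0.752, edgeR's quasi-likelihood test). Across the alternatives this change stayed between -1.98 and -0.77, with adjusted p between 0.0926 and 1.0. Mhrt was also the gene with the lowest p in the test for any difference among stages (unadjusted p of 0.0212 and adjusted p of 0.152 in edgeR), where 22.0% of all genes had an unadjusted p under 0.05 and 4.22% were called. The adjusted p in that test was 0.623 for Myh6, 0.544 for Myh7 and 0.849 for Myh7b. For P14 against P7 the log2 change of Mhrt was 0.84 ± 0.54 (adjusted p = 0.377), and it passed only where CM-like cells were called cell by cell, at 2.95 (adjusted p = 0.0229). At P7 that call takes in cells of clusters named for other types.

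From P4 to P28 the fitted log2 changes were 0.13 ± 0.45 for Myh6, -0.29 ± 0.37 for Myh7, -0.68 ± 0.64 for Myh7b and 0.02 ± 0.49 for Mhrt, with adjusted p between 0.701 and 0.992. Those of Myh6 and Mhrt changed sign with cells with atrial markers left out (-0.03 and -0.18). Without them Myh6 at P4 was at 13288 and 12738 CPM, and the 60 and 56 cells with atrial markers above ventricular ones were at 10042 and 10126 CPM.

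**Figure D3:**
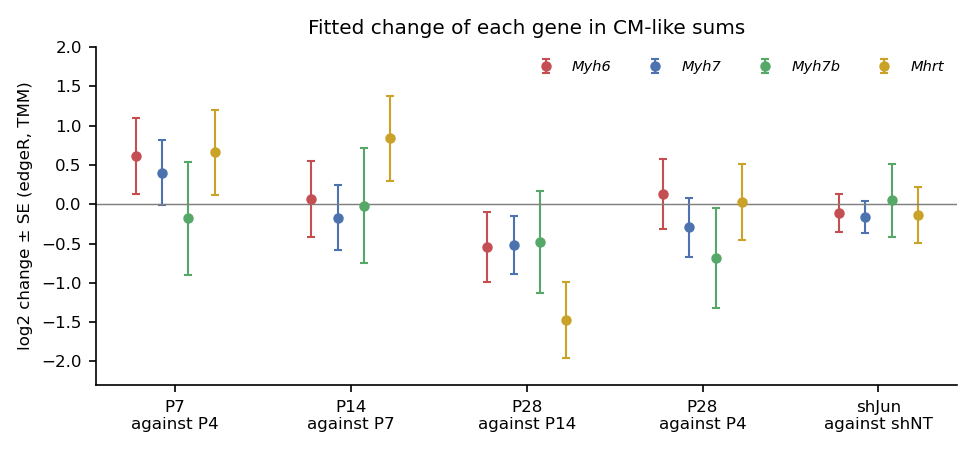
Fitted log2 change of the 4 genes in CM-like sums, with bars of 1 SE, for the 4 comparisons of stages and for shJun against shNT (edgeR with TMM scaling). The value farthest from 0 is that of Mhrt for P28 against P14, -1.47.

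Because Myh6 and Myh7 exchange places in development and disease, the Myh7 share of their joint UMIs was taken as a second measure that needs no scaling between chips. It was 7.23% (95% Clopper-Pearson interval 7.04 to 7.42) and 6.04% (5.90 to 6.17) at P4. P7 gave 5.83 and 5.66%, P14 gave 5.21 and 4.69%, and the 3 chips of P28 gave 5.35, 3.98 and 6.90%. The intervals cover counting error only. The P28 chips alone spanned nearly the whole range of all stages, with chip 5 above every chip but 1 of P4. The chips of older hearts (P14 and P28, n = 5 chips) had 0.96 points less Myh7 than those of younger ones (P4 and P7, n = 4 chips). The shares were 5.23 ± 1.08 against 6.19 ± 0.71% (mean ± SD), and the groups overlapped. A two-sided exact permutation test over chips gave p = 0.175, where 0.0159 is the smallest p this design allows. Both chips of P4 carried cells of the same animal names, as did both of P7. The test thus took chips that share animals as separate replicates, and its p does not measure spread between hearts.

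P28 chip 5 decided this comparison. Without it the difference was -1.38 points, the groups did not overlap and p was 0.0286, the smallest that 4 chips against 4 allow (exact permutation test). Of its 644 CM-like cells, 586 fell in a cluster led by Nppb, Acta1, Nppa and Ankrd1, genes known for the response of heart muscle to load, and their Myh7 share was 6.94%. In the main CM-like cluster of the other chips it was 5.31% on chip 1 and 3.97% on chip 3. A cluster drawn mostly from 1 chip may be that chip rather than a kind of cell. The difference was also past 0.05 with CM-like cells called cell by cell (-1.67 points, p = 0.0317, exact permutation test) and over all passing cells (-1.82 points, p = 0.0317). P28 against P4 differed by -1.22 points (p = 0.4, exact permutation test, where 0.2 is the smallest p possible). Chips were the units of all these tests as well, with animals shared between the chips of P4 and between those of P7.

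**Figure D4:**
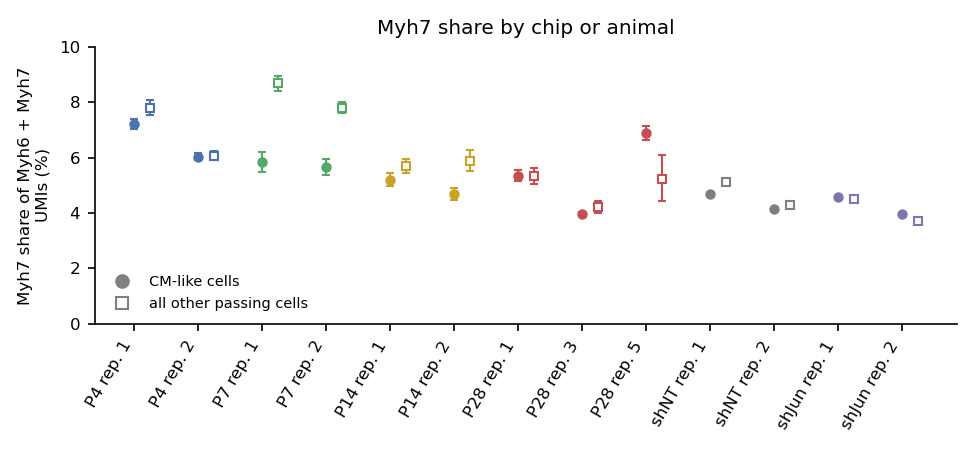
Myh7 share of Myh6 plus Myh7 UMIs (%) in CM-like cells (filled circles) and in all other passing cells (open squares) of each chip or knockdown animal, with 95% Clopper-Pearson intervals. CM-like shares lie between 3.97 and 7.23%, and those of the other cells of the same chips are higher at P7 (8.68 and 7.80%) and lower on P28 replicate 5 (5.23%). Replicate numbers are chip numbers for the stages.

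Within a stage the share varied from cell to cell more than counting error allows. Among CM-like cells with at least 200 UMIs of the pair, the median share was between 3.93 and 6.27% in the 13 sums. The SD over cells exceeded the binomial SD in all 13, as with 5.20 against 1.05 points on P4 chip 2 and 0.88 against 0.52 points in shJun animal 2. No such cell held more Myh7 than Myh6. Of 4027 such cells, 42 had a share over 10% and 4 a share over 25%, with 2 of the 4 at P4, 1 at P14 and 1 at P28. The highest was 49.3%, in a P4 cell with 193 Myh6 and 188 Myh7 UMIs. None of these 4 cells had more atrial than ventricular marker UMIs. P4 had 23 of its 226 cells over 10%, P7 3 of 33, P14 1 of 55, P28 7 of 530, shNT 6 of 1832 and shJun 2 of 1351.

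**Figure D5:**
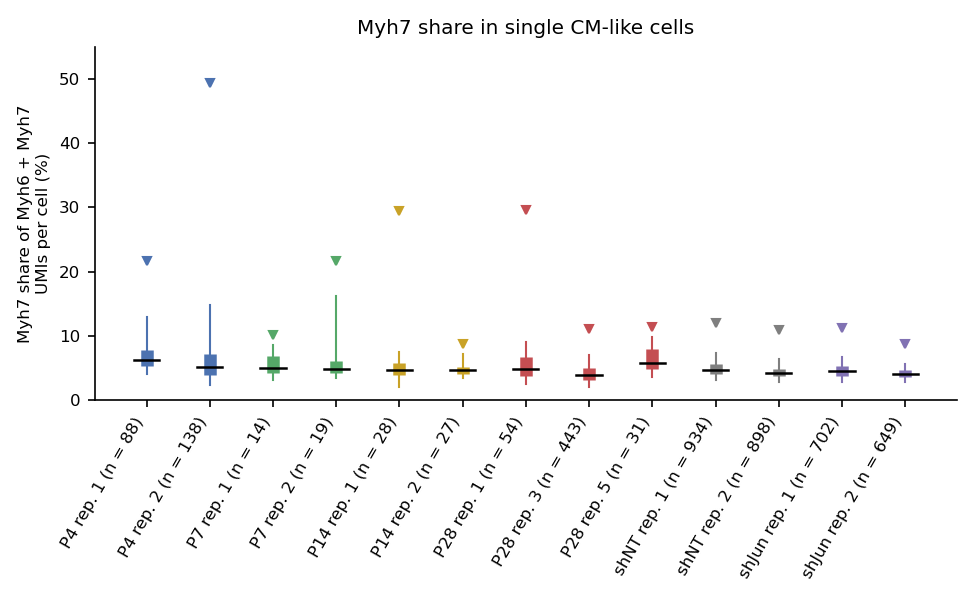
Myh7 share of Myh6 plus Myh7 UMIs (%) in single CM-like cells with at least 200 UMIs of the pair, by chip or knockdown animal. Black lines are medians, thick bars the middle 50%, thin lines the 5th to 95th percentile and triangles the highest cell, and n is the number of cells. Medians stay between 3.93 and 6.27%, and the highest cells reach 49.3% at P4, 29.7% at P28 and 29.4% at P14.

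Every CM-like cell of the 13 sums held UMIs of Myh6. Its 5th and 95th percentile over cells were 4690 and 34680 CPM on P4 chip 2 and lay closer together on P28 chip 3, at 10195 and 25024 CPM. At P4 these cells formed 2 clusters, 1 led by the atrial genes Sln and Nppa with 8675 and 9729 CPM of Myh6 on the 2 chips, and 1 led by Alpk2, Rnf207 and Mypn with 21800 and 21685 CPM. The Myh7 share was 7.66 and 5.83% in the first and 6.72 and 6.47% in the second, and Mhrt was at 77.1 and 57.7 CPM against 330 and 269 CPM. Myh6, Myh7 and Mhrt were thus all higher in the second cluster on both chips. No test was run, since cells of a chip are not replicates.

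Mhrt was detected in part of the CM-like cells, from 19.3% on P28 chip 5 (124 of 644) to 74.8% in shNT animal 1 (758 of 1013), without thinning. On the 2 chips of P14 it was detected in 37.2 and 55.8% of cells. The tenth of CM-like cells with most of them held between 51.6 and 79.3% of the Mhrt UMIs of a sum, against 25.1 to 60.2% for Myh6, whose higher counts were not matched to those of Mhrt. The highest cell, at 18999.5 CPM, was on P14 chip 2, the chip with the highest level in sum. Cells with Mhrt did not all hold Myh7. Such cells were most numerous on P28 chip 1, with 46 of the 243 cells with Mhrt, where 159 of all 637 CM-like cells had no Myh7 UMI. They numbered 0 on both chips of P4, both of P7 and P28 chip 3, and 1 of 758 in shNT animal 1. The part of depth in these counts was not tested. Myh7b was sparser still, without a UMI in 223 of 253 cells on P14 chip 1 and in 76 of 145 on P4 chip 1.

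Endothelial-like cells, a type that should lack all 4 genes, were read as background. Myh6 in endothelial-like cells was at 2075 and 2743 CPM at P4, 1596 and 2212 CPM at P7, and 2308 and 3114 CPM at P14. On the 3 P28 chips with CM-like sums it was at 4663, 10633 and 4006 CPM, while on the other 3 it was at 369, 248 and 223 CPM. On the first 3 chips nearly all of these cells (280 of 292, 42 of 42 and 18 of 18) belong to 1 cluster of 348 cells, in which CM markers were nearly as raised as endothelial ones (mean log2 over the rest of 0.82 and 0.88) and Myh6 was at 5703 CPM as the mean over cells. In the cluster of 661 cells that holds most of those of the other chips Myh6 was at 306 CPM. The P28 background is thus that of a mixed cluster. CM-like cells therefore stood 5.79- and 4.33-fold above endothelial-like cells at P4, 11.9- and 8.48-fold at P7 and 4.01- and 4.78-fold at P14, but 1.78-, 1.39- and 1.88-fold at P28. After thinning each cell to 2000 UMIs, a Myh6 UMI was seen in 98.6 to 100% of CM-like cells and in 22.9 to 100% of endothelial-like cells (median depths before thinning 5936 to 59749 and 4868 to 45094 UMIs). Unthinned, the endothelial-like range was 42.6 to 100%.

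Myh7 followed the same pattern, in 51.0 to 94.2% of thinned CM-like cells and 4.15 to 64.3% of endothelial-like cells. The Myh7 share in passing cells outside the CM-like class was between 3.71 and 10.5%, with 5.33% on P28 chip 1 beside 5.35% in its CM-like cells. At P7 it was 8.68 and 7.80%, above the 5.83 and 5.66% of the CM-like cells. Clusters left unnamed although CM markers were raised are among these cells, with 420 cells at P7 (17.2% of passing cells) and 392 at P4 (16.5%), and 3780 and 7303 CPM of Myh6 as the mean over cells.

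Mhrt stood farther above the background than Myh6 on all 4 chips of P4 and P7. Its CM-like level was 20.8- and 10.05-fold that of endothelial-like cells at P4, 25.03- and 30.9-fold at P7 and 3.52- and 4.95-fold at P14. At P28 it was 3.04-fold on chip 1 and 0.99-fold on chip 3, and on chip 5 the 18 endothelial-like cells held no Mhrt UMI, so no ratio is given. Per 1000 Myh6 UMIs there were 11.8 and 8.06 Mhrt UMIs in CM-like cells at P4 beside 3.28 and 3.48 in endothelial-like cells, but 12.7 and 20.7 beside 14.5 and 20.01 at P14. On the P28 chip with the highest ratio, chip 6, endothelial-like cells held 102 per 1000.

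Blood markers moved between the chips too. Globin and other erythroid markers came to 235 to 372 CPM in the CM-like sums of P4, 1214 to 1993 CPM at P7, 2528 to 68290 CPM at P14 and 5128 to 39817 CPM at P28. The chip of P14 with 68290 CPM was that with the lower Myh6, Myh7 and Mhrt. Endothelial markers (8 of 8 with UMIs in every stage) came to 143 to 192 CPM at P4, 281 to 421 at P7, 267 to 363 at P14 and 457 to 704 CPM at P28. Fibroblast markers (8 of 8) came to 517 to 2041 CPM at P7, where Myh6 and Myh7 were high, against 325 to 359 CPM at P4, 299 to 715 at P14 and 328 to 541 at P28. Macrophage markers came to 11.0 to 18.3 CPM at P4, 8.09 to 64.3 at P7 (with Cd68, Cd14, Adgre1 and Fcgr1 at 0), 15.3 to 65.9 at P14 and 154 to 541 CPM at P28. The part of these cell types in the levels was not tested.

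The reporter depends on the Myh6 promoter by way of Cre. In CM-like cells it was at group means of 341, 220, 150 and 285 CPM from P4 to P28. Endothelial-like cells also held it, at 128, 75.4, 66.4 and 147 CPM, so a reporter UMI alone does not show use of the promoter. CM-like cells with a reporter UMI had the higher Myh6 level in 6 of 9 stage sums. On P14 chip 1, CM-like cells with a reporter UMI were at 12122 CPM of Myh6 and those without at 6515 CPM, and on P4 chip 2 at 11554 and 21763 CPM, the other way round. Median depth was higher in the cells with a reporter UMI on both (14086 against 9657 UMIs and 40988 against 9678 UMIs), and its part was not tested.

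Knockdown of Jun was then read in the 4 animals, 2 per hairpin. In CM-like cells Jun itself was at 25.6 and 31.6 CPM with shJun and at 53.3 and 64.8 CPM with shNT, without overlap. Erythroid markers came to 17068 to 18106 CPM with shJun and 9477 to 27643 CPM with shNT, overlapping. The log2 change of Jun, -1.10 ± 0.25, had an unadjusted p of 0.00386 and an adjusted p of 1.0 over 17754 genes (quasi-likelihood test), and Jun passed only without a filter on low counts (-1.11, adjusted p = 0.0437).

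Myh6 was at 30671 and 31002 CPM in shJun and at 31595 and 32942 CPM in shNT animals. The groups did not overlap, which was so for 24.7% of all genes, and the log2 change was -0.12 ± 0.24 (adjusted p = 1.0, quasi-likelihood test). The test called none of the 4 genes, where 0.0% of all genes were called, with 400 at an unadjusted p under 0.05 (2.25%) and 14 called by DESeq2. With the animals that shared chips as a block 6 genes were called, none of them a member.

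Of the rest, Myh7 was at 1467 and 1282 CPM in shJun and 1552 and 1424 CPM in shNT animals (-0.16 ± 0.20 on the log2 scale). Myh7b was at 42.5 and 19.6 CPM against 36.7 and 21.3 CPM (0.05 ± 0.46), and Mhrt at 185 and 111 CPM against 198 and 117 CPM (-0.14 ± 0.36). In all 3 genes animal 1 of each hairpin was high and animal 2 low, the animals with the same number shared chips, and the hairpins overlapped. Within both pairs that shared chips, Myh6, Myh7 and Mhrt were lower with shJun, while Myh7b was higher in 1 pair and lower in the other. With the pairs as a block the log2 changes were -0.12 ± 0.16 for Myh6, -0.17 ± 0.15 for Myh7 and -0.14 ± 0.16 for Mhrt (adjusted p = 1.0 for each, edgeR's quasi-likelihood test). The Myh7 share was 4.56 and 3.97% in shJun and 4.68 and 4.14% in shNT animals, lower in both pairs, with a difference of -0.14 points (two-sided exact permutation test without the pairing, p = 0.667, where 0.333 is the smallest p possible).

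In shJun animal 2, 315 cells (19.2% of those passing) stayed outside the CM-like class, with a median of 4561 UMIs and the liver genes Alb, Ttr and Apoa1 among the leading genes. CM markers were raised in them, and they carried 33261 CPM of Myh6 as the mean over cells. The untreated P28 hearts had 7546 to 14732 CPM of Myh6 in CM-like cells and the knockdown hearts 30671 to 32942 CPM. These sets were run on different chips, with 5056 to 33581 and 30507 to 59749 UMIs per median CM-like cell, and the set and the chips cannot be told apart.

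Other genes of the thick filament and its control were read from fixed lists. Of 10 other class II myosin heavy chains, 9 were tested over the stages and none passed in any contrast. Their median log2 change was 0.53 for P7 against P4 and 0.34 for P28 against P4. Myh10, a non-muscle chain, was at 112 CPM at P4 and 27.5 CPM at P28 as group means (adjusted p = 0.0728 for any difference among stages), and Myh8, a perinatal muscle chain, at 27.5 and 26.9 CPM.

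Among 16 tested light chain and thick filament partners, 4 fell from P4 to P28 and none rose, where 0.693% of all genes fell and 0.795% rose, with a list median of 0.39. They were Myl7 and Myl4, atrial light chains, Myl1, another light chain, and Mybphl, an atrial relative of myosin-binding protein C. Myl7 was at 9772 and 12584 CPM at P4 and at 20.4, 32.7 and 98.1 CPM at P28 (adjusted p = 0.00324, quasi-likelihood test). With cells with atrial markers left out, a step that itself uses Myl7, Myl4 and Mybphl, adjusted p was 0.0577 for Myl7, 0.396 for Myl4 and 0.484 for Myl1, and Mybphl was not tested. For P7 against P4 Mybphl alone fell, from 98.4 and 202 CPM to no UMI, where 0.0219% of all genes fell and 0.0219% rose. From P7 to P14 Myl7 and Myl1 fell, kept in 12 of 17 and 7 of 18 alternatives, with 375 and 1 Myl7 UMIs on the 2 chips of P7, and the list median was 0.35, or 0.13 with genes at 0 set to the bound of 3 counts per library.

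Of 20 tested regulators of heavy chain transcription, 1 rose and 1 fell from P7 to P14, where 1.47% of all genes rose and 0.94% fell, and none passed in the other contrasts. Thrb, a thyroid hormone receptor, had no UMI at P7 and was at 14.1 and 19.7 CPM at P14, higher by at least 2.51 on the log2 scale against a floor of 3 counts per library (adjusted p = 0.0227, quasi-likelihood test). It was at 2.59 and 7.97 CPM at P4. Parp1, a partner of Brg1, was at 216 and 230 CPM at P7 and at 21.5 and 43.7 CPM at P14 (adjusted p = 0.0347), and kept the call in 6 of 18 alternatives. The list median there was -0.21. Smarca4, the partner of Mhrt, was at 114, 184, 56.5 and 79.1 CPM as group means from P4 to P28 and passed no test. In the knockdown animals no gene of the 3 lists passed. The microRNA genes Mir208a, Mir208b and Mir499 had at most 12 UMIs in any CM-like sum, with none for Mir499, and were not tested.

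Over the 9 stage sums the genes most like Myh7 were Ttn (r = 0.962 of log2 CPM), Pnpla8, Ppargc1b, D5Ertd579e and Psmc1 (0.898), chosen as the 5 largest r among 2405 genes with a mean of at least 50 CPM. For Myh6 they were Ppp2r3a (0.937), Rbm25, Lrrc39, Rock2 and Pnpla8 (0.871), and for Mhrt Zbtb20 (0.919), Slc38a2, Plin5, Naa15 and 1700020I14Rik (0.857). Myh6 and Myh7 had an r of 0.813, Myh6 and Mhrt of 0.578 and Myh7 and Mhrt of 0.496. These are descriptions over 9 sums that differ in depth and of which those of P4 share animals, as do those of P7, and Myh6 and Myh7 share sequence.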

How the data were processed

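The authors deposited raw UMI counts for each Ensembl gene in each well, without normalization, and well reports that name each well's type. Per the study's methods reads were trimmed with cutadapt, screened with bowtie2, aligned to mm10 with STAR 2.5.2b and assigned with featureCounts (Subread 1.4.6-p1), and wells were imaged for single live cells, so no doublet caller was run. Total UMIs per chip were between 11161784 and 133264535. Chips share well addresses, with 4890 of 5051 barcodes present in at least 2 samples.

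Cells with at least 500 genes and a log10 UMI count within 2 SD of their group's mean were kept, a form of the study's filter. Each stage and each knockdown animal was clustered (leidenalg 0.10.2) without the 4 genes and the lists. Clusters were named from fixed markers, and some rules for leaving a cluster unnamed were made with the clusters in view. The members and lists were chosen with earlier results of these data known. These names are not the study's own. UMIs were summed by chip (stages) or by animal (knockdown; at least 10 cells), and tested with edgeR 4.0.16 (glmQLFit, TMM, filterByExpr), with DESeq2 1.42.0 as an alternative. SEs were derived from the log2 change and F. Shares used exact permutation tests. Tests were also tried on counts simulated from the fitted sums. The study worked with several mice per stage, but neither labels nor well reports tie the P14 chips to animals, and p-values may measure technical spread. The genes named are the 4 members, Jun, the reporter, up to 4 genes per list and comparison with the smallest p among those that passed, and the 5 genes most like each of 3 members.

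The numbers pair the knockdown animals. The well reports place shJun animal 1 and shNT animal 1 on shared chips, and likewise the animals numbered 2. Their deviations from the group means had an r of 0.349 over 17754 genes. With 2 animals per hairpin the deviations mirror each other, so both pairs must give this r and the crossed animals its negative (-0.349). The pairing thus rests on the shared chips. Gene positions are from GENCODE vM21 on GRCm38, which is mm10, and microRNA and promoter sequences from RefSeq tables of GRCm38.p6. Alternatives were another tool, no filter, larger sums, sums per animal, cell-by-cell calling, thinning to 5000 UMIs, at least 1000 genes, no atrial cells and each replicate left out.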

Additional observations from a re-analysis of the deposited data

Results flagged for a closer look

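Wells meant to hold no cell held UMIs of the heavy chains. In the 5 negative control wells of a chip, Myh6 UMIs numbered 75, 346, 164, 370 and 12 on knockdown chips 1 to 5, and 6, 15 and 6 on P28 chips 1, 3 and 6, all above the 3 counts taken as the limit that a count of 0 allows. Myh7 UMIs numbered 4, 18, 6 and 15 on knockdown chips 1 to 4. Knockdown chips 1 to 4 carried the wells typed as CM, and chips 5 and 6 those typed as non-CM.

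Myh7b in passing cells outside the CM-like class was highest on P28 chip 3, at 14.99 CPM, far from the other 5 chips of P28 relative to their range. Among the 5 sets of chips looked at in this way, chance flags about 1 in 20. On this chip Myh7b was at 14.6 CPM in CM-like cells.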

How the results depend on the processing

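No member passed the threshold in any contrast under any setting, except Mhrt for P14 against P7 with CM-like cells called cell by cell (log2 2.95), which made the number of members called there 1. At P4 and P7 that calling takes in cells of clusters named for other types. That calling also turned Mhrt (-0.53), Myh6 (-0.87) and Myh7 (-0.75) for P7 against P4, Myh7 (1.63) and Myh7b (1.57) for P14 against P7 and Myh7 (0.39) for P28 against P4, and put the Myh7 share of P14 and P28 against P4 and P7 (-1.67 points) past 0.05, as did all passing cells (-1.82). Thinning to 5000 UMIs turned Mhrt for P28 against P4 (-0.43) and P7 against P4 (-0.24), Myh7 for P14 against P7 (0.21) and P7 against P4 (-0.15), and Myh7b after the knockdown (-0.21). Without atrial cells Mhrt (-0.18) and Myh6 (-0.034) turned for P28 against P4 and Myh7b (0.12) for P14 against P7. Sums per animal turned Myh6 for P14 against P7 (-0.038) and P28 against P4 (-0.029) and Myh7b for P7 against P4 (0.049), and DESeq2 Myh6 for P14 against P7 (-0.057) and Myh7b for P7 against P4 (0.018). Myh7b for P14 against P7 turned with sums of at least 20 cells (0.11) and at least 1000 genes (0.11), and Mhrt for P28 against P4 with no filter (-0.023), under which Jun passed (-1.11). The cause was not tested.

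With the animals that shared chips as a replicate block, Myh7b after the knockdown was -0.0062, and with chip as a block -0.12. The block changed no call of a member. Leaving out each replicate gave ranges of -1.38 to -0.62 points for the Myh7 share of older against younger hearts and -0.44 to 0.15 for shJun against shNT, and in log2 -0.47 to 0.31 for Mhrt, P28 against P4, -0.17 to 0.22 for Myh6, P14 against P7, -0.33 to 0.33 for Myh6, P28 against P4, -0.76 to 0.45 and -0.92 to 0.26 for Myh7b, P14 against P7 and P28 against P14, and -0.58 to 0.30 and -0.64 to 0.50 for Mhrt and Myh7b after the knockdown. A lone sample was then assumed to vary like the other groups.

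Over all settings the genes called numbered 0 to 356 for P7 against P4, 27 to 1344 for P14 against P7, 0 to 32 for P28 against P14, 20 to 931 for P28 against P4 and 0 to 391 for the knockdown, beside 6, 330, 0, 204 and 0. Among levels, 31 of 48 moved by more than the spread with other totals or calling, and 80 of 104 shares of cells with a UMI with other depths. Depth limits Myh7b most, with 27 to 255 UMIs per stage sum.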
